A study of Mus musculus with 12 samples.

Results

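Receptors for glutamate, GABA and glycine carry synaptic signals through the retina. All array probes whose accession maps to a mouse gene for a subunit of an AMPA, kainate, delta, NMDA or metabotropic glutamate receptor, a GABA-A or GABA rho receptor, or a glycine receptor were taken, by gene symbol alone. The group of genes itself was chosen with earlier results of these data known. This gave 49 genes with 65 probes, out of 39429 probes. Of these, 46 genes with 61 probes passed a filter on dim signals (well above background, in Cy3 or in Cy5, on each of the 3 arrays of some group), as did 23237 genes in all. Gabra6, Gabre and Gabrq, which encode GABA-A subunits, did not.

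The study compared mouse retinas 7 days after an injection into the vitreous of the right eye. Male C57BL/6 mice aged 5 weeks received either phosphate-buffered saline (PBS) or nanoparticles of gold or of silicate with a diameter of 20 or 100 nm, 12 mice in each group. The strain entry of the PBS channel runs on from array to array for the silicate samples, and is taken here as C57BL/6 throughout. RNA of 4 retinas was pooled per tube, so each of the 4 particle groups (gold of 20 nm or 100 nm, silicate of 20 nm or 100 nm) had 3 tubes, each on an array of its own. Every array carried particle RNA in the red dye Cy5 and PBS RNA in the green dye Cy3, and the dyes were never exchanged, so a dye effect of a probe and an effect of the particles cannot be told apart in a ratio against PBS. The 12 arrays lay on 3 slides, each with 1 array per group. Which PBS tube went onto which array is not stated, and the 4 arrays of a slide are taken to share 1 PBS tube. All 4 particle groups are therefore set against the same PBS tubes, and the number of these tubes limits the precision along with the number of arrays. Unless called levels, values give the log2 of the particle signal over that of PBS. A level is a normalized log2 intensity within 1 channel, and levels of different probes are not compared.

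As background, photoreceptors release glutamate in the dark, bipolar cells carry the signal to ganglion cells, and horizontal and amacrine cells shape it by inhibition. AMPA and kainate receptors are fast glutamate-gated channels, NMDA receptors are slower channels with calcium permeability, and metabotropic receptors act through G proteins. GABA-A, rho and glycine receptors are chloride channels, of which the rho type is a hallmark of bipolar cell terminals.

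Of the 46 genes, 4 passed an adjusted p of 0.05 over the 4 particle groups together: the kainate receptor gene Grik3, the metabotropic receptor gene Grm3 and the GABA-A gene Gabra5 were higher, and the GABA-A gene Gabrp was lower. Of all genes, 14.8% passed in this comparison, and with the slide, whose 4 arrays are taken to share a PBS tube, as a random block none of the 46 passed (smallest adjusted p = 0.170). Grm3, Gabra5 and Gabrp each passed the filter on dim signals only through the channel in which they were higher. Their calls are thus not support for a direction. The 150 bases before the RefSeq start site of the 4 called genes are shown because they are the calls against PBS without a slide term, with coordinates on GRCm38.p6. Capitals mark the GC box GGGCGG. The other motifs searched were TATAAA, the homeobox core TAATCC and the cAMP response element TGACGTCA, on both strands, and no motif contains another. None of these 3 was found in the 4 windows.
Grik3, chr4:125490546-125490695, plus strand: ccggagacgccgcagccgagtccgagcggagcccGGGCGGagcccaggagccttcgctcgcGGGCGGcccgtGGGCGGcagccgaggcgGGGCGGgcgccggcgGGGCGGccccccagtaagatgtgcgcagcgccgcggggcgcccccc
Grm3, chr5:9725353-9725502, minus strand: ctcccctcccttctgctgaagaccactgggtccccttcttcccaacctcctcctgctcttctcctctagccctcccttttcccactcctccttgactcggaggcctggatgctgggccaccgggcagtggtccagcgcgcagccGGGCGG
Gabra5, chr7:57510060-57510209, minus strand: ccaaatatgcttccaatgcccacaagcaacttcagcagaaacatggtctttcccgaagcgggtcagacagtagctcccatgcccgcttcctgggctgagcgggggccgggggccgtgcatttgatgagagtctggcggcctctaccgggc
Gabrp, chr11:33578958-33579107, minus strand: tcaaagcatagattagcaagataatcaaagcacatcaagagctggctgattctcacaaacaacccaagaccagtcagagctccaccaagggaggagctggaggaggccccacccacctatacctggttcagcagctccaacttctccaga

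These windows differ widely in composition. Grik3 has 26 CpG and 5 GC boxes, Grm3 has 6 CpG and 1 GC box, Gabra5 has 8 CpG and no GC box, and Gabrp has no CpG. A GC box was present in 28.6% of 32851 promoter windows of this length over all genes, TATAAA in 7.57%, TAATCC in 3.60% and TGACGTCA in 1.36%. Promoter entries were found for 33 of the receptor genes, with 40 windows, of which 37.5% held a GC box. A match is a description of the letters in the window only.

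Across the 12 arrays, the receptor genes differed more by slide than by particle. On slide 1 the median log2 ratio over the 46 genes was 0.39 with gold 20 nm, 0.33 with gold 100 nm, 0.48 with silicate 20 nm and 0.38 with silicate 100 nm. On slide 2 it was -0.076, -0.016, -0.056 and 0.027 in the same order, and on slide 3 it was 0.058, 0.022, -0.26 and -0.20. These medians were above 0 on all 4 arrays of slide 1, near 0 on slide 2 and on the gold arrays of slide 3, and below 0 on the 2 silicate arrays of slide 3. The median over all genes tested lay between -0.011 and 0.012 on every array.

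**Figure D1:**
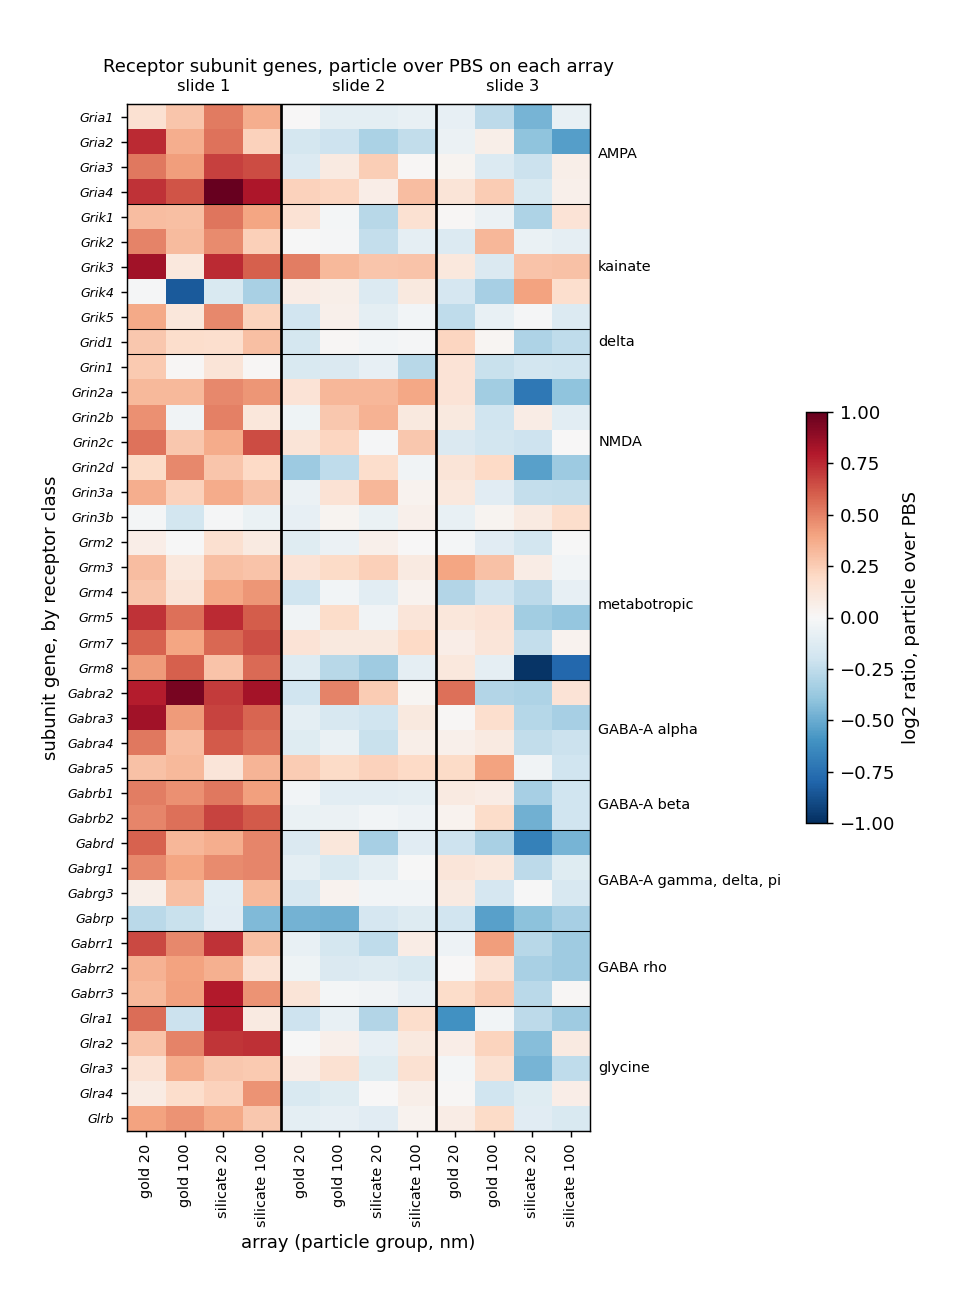
Log2 ratio of particle over PBS for 41 of the 46 receptor subunit genes (vertical axis, by receptor class) on each of the 12 arrays (horizontal axis, particle group in nm, by slide), with colour from -1 (blue) to 1 (red). Slide 1 is mostly red, with array medians of 0.33 to 0.48, and the 2 silicate arrays of slide 3 are mostly blue, with medians of -0.26 and -0.20.

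On slide 1, 37 of the 46 genes were above 0 on all 4 arrays, against 31.4% of all genes, and 3 were below 0 on all 4 (Gabrp, Grik4 and Grin3b), against 34% of all genes. In 32 genes all 4 arrays of slide 1 lay above all 4 arrays of slide 2, against 17.2% of all genes, and the reverse held for none, against 23.5%. The slide 1 means ran from -0.33 for Grik4 to 0.82 for Gabra2, with a median of 0.38. On slide 2, 6 genes were above 0 on all 4 arrays (Gabra5, Gria4, Grik3, Grin2a, Grm3 and Grm7), against 21.7% of all genes, and 11 were below 0 on all 4, against 20%. No test was made of these counts, since the 4 ratios of a slide share their PBS tube.

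On slide 3, 31 of the 46 genes were below 0 on both silicate arrays, against 39.2% of all genes, and 3 were above 0 on both (Grik3, Grik4 and Grin3b), against 41.9%. The means of these 2 arrays ran from -0.88 for the metabotropic receptor gene Grm8 to 0.29 for Grik3, with a median of -0.18. Gabrd, Grin2a and Gria2 were also among the 5 lowest. Both patterns, above 0 on all of slide 1 and below 0 on both silicate arrays of slide 3, were seen in 26 genes, against 16.6% of all genes. The gold arrays of slide 3 showed no such side, with 18 genes above 0 on both, against 31.2% of all genes, and 10 below 0 on both, against 33.1%.

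The channel levels show where the slides parted. The PBS level was lower on slide 1 than the mean of slides 2 and 3 in 45 of the 46 genes, with a median difference of -0.48. It ran from -0.85 to 0.16, the latter for Grik4, the only gene above 0. Over all genes the median of this difference was -0.082, and 61.2% were below 0. In the particle channel, slide 1 differed from the gold arrays of slides 2 and 3 by a median of -0.14, with 42 of 46 genes below 0, against -0.089 and 74.3% over all genes. The silicate arrays of slide 3 were below the gold arrays of the same slide in the particle channel in 44 of 46 genes, with a median of -0.44 against -0.11 over all genes, from -0.97 for Grm8 to 0.40 for Grik4. Most receptor levels were thus lower in the PBS channel of slide 1 and in the silicate tubes of slide 3. In the particle channel of slide 1, all 4 groups were set against gold arrays only. Most receptor levels were lower there too, but so were 74.3% of all genes. In pooled tissue, fewer cells of a type and less RNA per cell cannot be told apart.

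**Figure D2:**
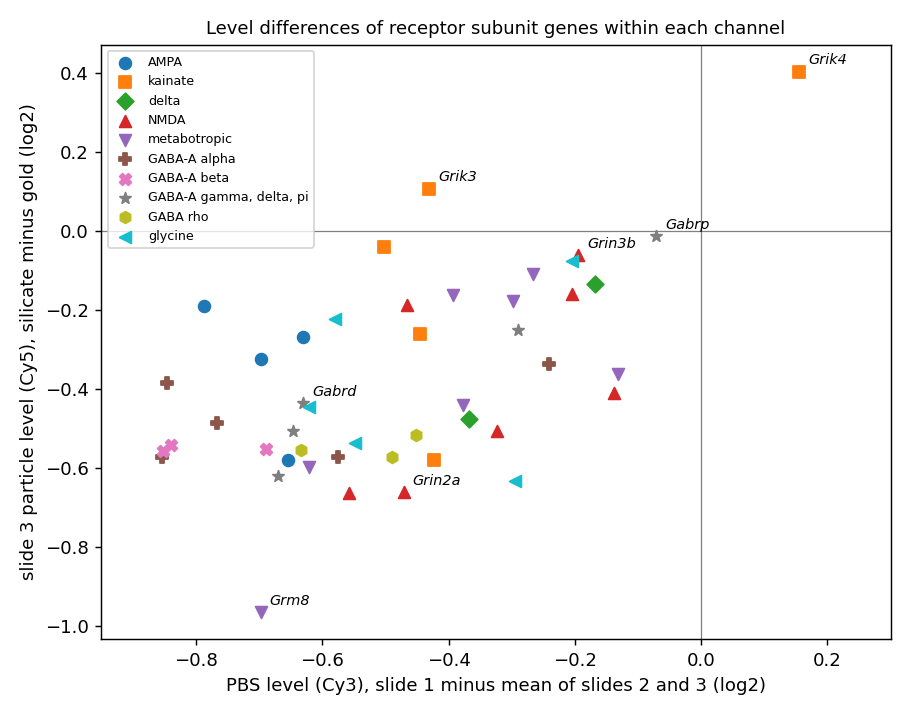
Differences in level of the 46 receptor genes, in log2 units. The horizontal axis is the PBS level of slide 1 minus the mean of slides 2 and 3, the vertical axis the particle level of the silicate arrays of slide 3 minus the gold arrays of that slide, and the symbols mark the receptor class. Nearly all genes sit in the lower left, with Grik4 at 0.16 and 0.40 in the upper right and Grm8 lowest at -0.97.

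Markers of other cells moved with these slides. The median log2 ratio of 14 macrophage and microglia markers (of 15 listed, Cd68 was not kept) was -2.59, -3.11, -1.89 and -2.59 on slide 1, in the group order used above, 1.11, 0.44, 0.33 and 0.24 on slide 2, and -0.39, -0.70, 3.27 and 3.40 on slide 3. Their summed level was 17.8 to 17.9 in the PBS channel of slide 1 and 18.4 and 18.7 in the silicate tubes of slide 3, while the gold tubes ranged from 13.6 to 14.8. All of the 14 were well above background on some array. Neutrophil markers (6 of 7 kept) had medians of -3.74 to -3.60 on slide 1 and of 2.70 and 3.22 on the silicate arrays of slide 3. On the silicate arrays of slide 2 they were 0.83 and 0.77, where the receptor medians were -0.056 and 0.027. On slides 1 and 3, receptor ratios were mostly above 0 where the PBS tube had the highest levels of these markers, and mostly below 0 where the particle tube had them. The part of these cells in the receptor values was not tested.

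Markers of several retinal neurons lay on the same side of 0 as the receptor genes. Amacrine markers (14 of 15 kept) had medians of 0.43 to 0.72 on slide 1, and of -0.17 and -0.032 on the silicate arrays of slide 3. All 14 were above 0 on each slide 1 array, but 3 and 5 were also above 0 on these silicate arrays, where the second median was near 0. Ganglion cell markers, all 14 kept, had 0.36 to 0.63, and -0.19 and -0.13 on the same arrays, and the 11 bipolar markers had 0.42 to 0.61, and -0.49 and -0.24. Rod markers, 17 of 17 kept, had 0.35 to 0.64 on slide 1 and -0.87 and -0.84 on the silicate arrays of slide 3, but also 0.34 and 0.25 on the gold arrays of slide 3, where the receptor medians were 0.058 and 0.022. Cone markers, 10 of 10 kept, had 0.13, 0.32, -0.00065 and 0.14 on slide 1 and -0.35 and -0.52 on the silicate arrays of slide 3. Müller glia markers, 12 of 12 kept, had medians above 0 on slide 1 (0.068 to 0.36) and also on the silicate arrays of slide 3 (0.80 and 0.39). This list was split on slide 1, where 7, 6, 8 and 7 of the 12 were above 0 in the group order used above, with Vim at -1.87 to -1.18. On the silicate arrays of slide 3, 10 and 9 were above 0. Horizontal cell markers (4 of 6 kept) had medians of 0.24 to 0.46 on slide 1, and of 0.013 and -0.019 on the silicate arrays of slide 3. Lens markers (17 of 17 kept) and pigment epithelium markers (10 of 11 kept) were also detected, and their medians ranged from -2.03 to 2.78 and from -0.30 to 2.93 over the arrays.

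**Figure D3:**
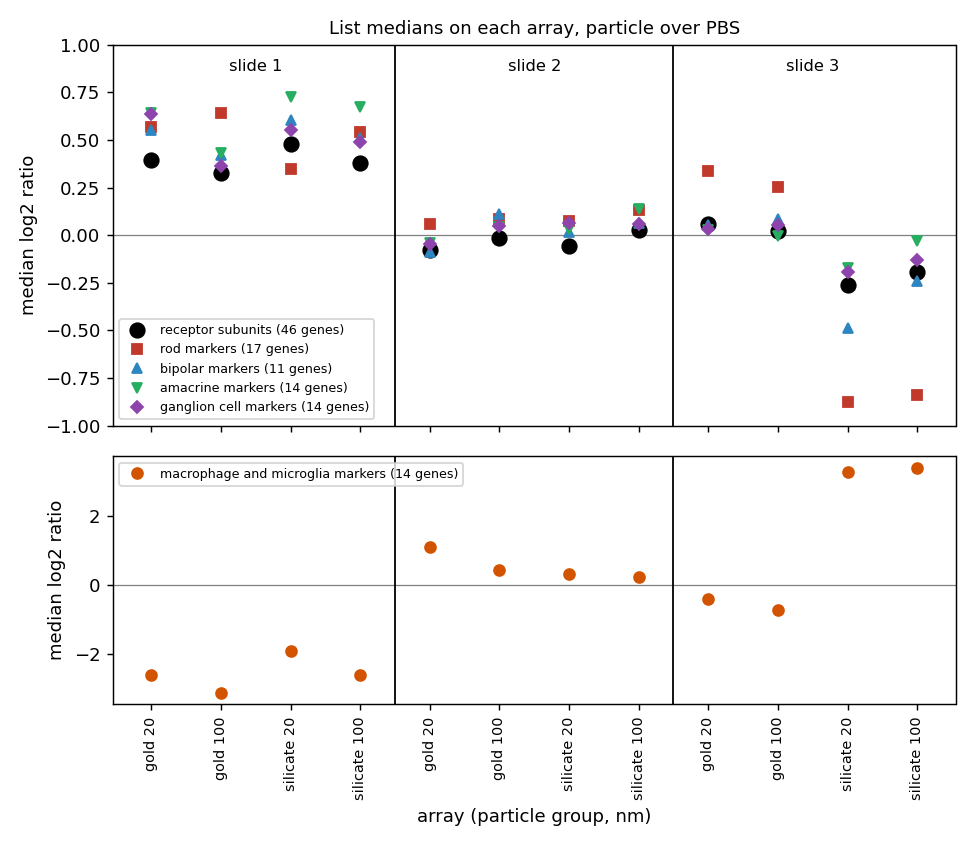
Median log2 ratio on each of the 12 arrays (horizontal axis, particle group in nm, by slide) for the 46 receptor genes (black) and for marker lists of rods, bipolar, amacrine and ganglion cells (upper plot) and of macrophages and microglia (lower plot, wider scale). On slide 1 the receptor medians are 0.33 to 0.48 and the macrophage medians -3.11 to -1.89, and on the silicate arrays of slide 3 the signs are turned, with macrophage medians of 3.27 and 3.40.

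The first question of the design is what each particle did relative to PBS. No receptor gene passed limma's adjusted p of 0.05 in any single group. With gold 20 nm, 0.706% of all genes passed, and 4 receptor genes had an unadjusted p under 0.05 (3 higher, 1 lower). With gold 100 nm these values were 0.981% and 3 genes, with silicate 20 nm 2.09% and 4 genes, and with silicate 100 nm 0.99% and 2 genes. Over all genes, 8.80%, 12.1%, 15.4% and 10.8% had an unadjusted p under 0.05 in the 4 groups. With the slide as a random block the receptor genes with an unadjusted p under 0.05 were 3, 2, 2 and 4, again with none past the adjusted threshold, where 0.538%, 0.676%, 1.24% and 0.826% of all genes passed. The fit with the slide as a replicate block, which leaves out the spread between PBS tubes, called 1 in each group: Grik3 higher with gold 20 nm (adjusted p = 0.0357) and silicate 20 nm (adjusted p = 0.0348), Gabrp lower with gold 100 nm (adjusted p = 0.0381) and Grin2c higher with silicate 100 nm (adjusted p = 0.0257). In that fit 4.47%, 6.73%, 8.77% and 4.04% of all genes passed in the 4 groups.

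Group medians over the 46 genes were 0.13 with gold 20 nm, 0.11 with gold 100 nm, 0.047 with silicate 20 nm and 0.053 with silicate 100 nm, against medians of -0.012, -0.016, 0.010 and 0.0072 over all genes. In these groups 36, 35, 33 and 34 of the 46 genes were above 0, against 46.9%, 46.1%, 52.7% and 52.1% of all genes. Without slide 1 the medians were -0.012, 0.0024, -0.17 and -0.076, so they rested on that slide. The smallest adjusted p in each group was 0.228 for Grm3, 0.0816 for Gabrp, 0.188 for Grik3 and 0.224 for Gabrp.

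Taking the 4 groups together against PBS uses all 12 arrays, but these are taken to hold only 3 PBS tubes. The fit without a slide term treats the 12 ratios as independent, so its errors are too narrow where ratios share a PBS tube. In this comparison 3 of the 46 receptor genes were higher and 1 was lower by limma, where 8.44% and 6.34% of all genes passed in these directions and 14.8% in either. The share among receptor genes was thus below that of all genes. Another 3 genes (Gabra2, Gria4 and Grm7) reached an unadjusted p under 0.05 without passing. The median over the 46 was 0.10 against -0.0074 over all genes, with 37 above 0, and it was -0.054 without slide 1. With the slide as a random block no receptor gene passed, against 1.69% of all genes, and 5 had an unadjusted p under 0.05, against 12.7% of all genes. With the replicate block 14 were higher and 1 was lower, against 17.7% and 17.1% of all genes in these directions and 34.8% in either. In that fit the higher genes included Gabra2, Gabra5, Gabrg1, Gabrr3, Glra2, Glrb, Gria3, Gria4, Grik3, Grin2c, Grm3, Grm5 and Grm7, and Gabrp was the lower one. Without the 2 silicate arrays of slide 3, 6 were higher and 1 was lower, against 16.9% of all genes in either direction. Of the 4 genes called, Grik3 was well above background in both channels on all 12 arrays. Gabrp passed the filter on dim signals only through the PBS channel, and Grm3 and Gabra5 only through the particle channel of gold 20 nm, the side on which each was higher, so their calls are given as values and not as support for a direction. Under the stricter filter these 3 genes were not tested.

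Grik3 encodes GluK3, a kainate receptor subunit of low glutamate affinity. In the order of slides 1, 2 and 3, its log2 ratio was 0.84, 0.51 and 0.10 with gold 20 nm, 0.11, 0.33 and -0.14 with gold 100 nm, 0.74, 0.28 and 0.29 with silicate 20 nm, and 0.60, 0.29 and 0.29 with silicate 100 nm. It was above 0 on 11 of the 12 arrays, the exception being gold 100 nm on slide 3, and the groups overlapped. The mean was 0.35 ± 0.28 (SD, n = 12), a 1.28-fold difference (adjusted p = 0.0125 without a slide term, 0.207 with the slide as a random block). Grik3 was among the few receptor genes above 0 on both silicate arrays of slide 3. Leaving out slide 1, then slide 2, gave an adjusted p of 0.105 and 0.189. Its other probe, never well above background, read 0.069.

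Grm3 encodes the G-protein-coupled receptor mGluR3, which lowers cyclic AMP. Its log2 ratio on slides 1, 2 and 3 was 0.31, 0.13 and 0.39 with gold 20 nm, 0.10, 0.19 and 0.29 with gold 100 nm, 0.30, 0.24 and 0.071 with silicate 20 nm, and 0.28, 0.094 and -0.030 with silicate 100 nm. Only silicate 100 nm on slide 3 was below 0, and slide 1 did not stand apart from the others. The mean was 0.20 ± 0.12 (SD, n = 12; adjusted p = 0.00972 without a slide term, 0.317 with the slide as a random block). The probe is dim: it was well above background in Cy3 on 4 arrays and in Cy5 on 6, and in neither channel of any silicate 100 nm array. With the scanner's processed signals in place of the offset of 50, which shrinks ratios of dim probes, the mean was 0.78 and the adjusted p 0.0627. Leaving out slide 1, then slide 2, gave an adjusted p of 0.0913 and 0.163.

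Gabra5 encodes the alpha 5 subunit of GABA-A receptors, known from receptors outside the synapse. Values on slides 1, 2 and 3 were 0.29, 0.25 and 0.19 with gold 20 nm, 0.33, 0.19 and 0.41 with gold 100 nm, 0.12, 0.23 and -0.035 with silicate 20 nm, and 0.34, 0.20 and -0.20 with silicate 100 nm. Both values below 0 were those of the silicate arrays of slide 3, and the other 10 arrays were above 0. The mean was 0.19 ± 0.17 (SD, n = 12; adjusted p = 0.0259 without a slide term, 0.409 with the slide as a random block), and with processed signals it was 1.01. It was well above background in Cy3 on 6 arrays and in Cy5 on 7, and in neither channel of any silicate 100 nm array, so the values of that group, 1 of those below 0 among them, are of dim signals. Leaving out slide 1, then slide 2, gave an adjusted p of 0.176 and 0.275.

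Gabrp encodes the pi subunit of GABA-A receptors, found mainly outside the brain. Its ratio on slides 1, 2 and 3 was -0.27, -0.47 and -0.19 with gold 20 nm, -0.22, -0.48 and -0.54 with gold 100 nm, -0.12, -0.16 and -0.41 with silicate 20 nm, and -0.44, -0.13 and -0.33 with silicate 100 nm. All 12 values were below 0, a pattern shown by 1 of the 46 receptor genes and by 2.46% of all genes. Gabrp passed the filter on dim signals only through the PBS channel, so this side of 0 is not support for a direction. No receptor gene was above 0 on all 12, against 3.79% of all genes. No slide or group stood apart. The mean was -0.31 ± 0.15 (SD, n = 12; adjusted p = 0.00209 without a slide term, 0.170 with the slide as a random block). The probe was well above background in Cy3 on all 12 arrays and in Cy5 on none. The particle level is thus that of a dim signal, and a dye effect of the probe cannot be told apart from a lower level. The level in PBS was 6.73, 6.80 and 6.80 on the 3 slides, and with processed signals the mean ratio was -1.23. Without slide 2 its adjusted p was 0.0839.

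**Figure D4:**
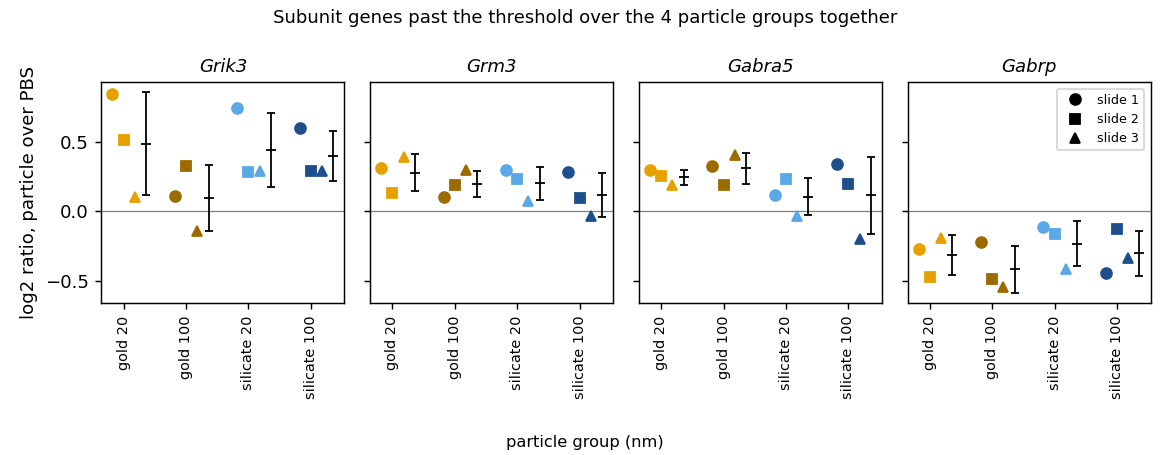
Log2 ratio of particle over PBS (vertical axis) of Grik3, Grm3, Gabra5 and Gabrp in each particle group (horizontal axis, nm). Symbols are arrays by slide, and bars give the mean and SD of 3 arrays. Grik3 is above 0 on 11 arrays, Grm3 on 11 and Gabra5 on 10, and Gabrp is below 0 on all 12.

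Among AMPA receptor genes, which encode the channels of fast excitation, all 4 were above 0 on every slide 1 array, with slide 1 means of 0.33 to 0.81. The ratio of Gria4 on slides 1, 2 and 3 was 0.72, 0.23 and 0.13 with gold 20 nm, 0.63, 0.21 and 0.26 with gold 100 nm, 1.06, 0.063 and -0.16 with silicate 20 nm, and 0.81, 0.31 and 0.053 with silicate 100 nm. Slide 1 lay above both other slides in every group, and 11 of 12 arrays were above 0. Its mean over the 12 arrays, 0.36 ± 0.36 (SD), was the highest of any receptor gene and did not pass (adjusted p = 0.0605 without a slide term, 0.320 with the slide as a random block). It passed with the replicate block (adjusted p = 0.00145) and without the silicate arrays of slide 3 (adjusted p = 0.0325). Its further probe had a mean of 0.19. Gria2, whose product limits calcium entry through AMPA receptors, had 0.75, -0.18 and -0.057 with gold 20 nm, 0.36, -0.21 and 0.061 with gold 100 nm, 0.55, -0.32 and -0.41 with silicate 20 nm, and 0.23, -0.25 and -0.55 with silicate 100 nm on the 3 slides. Every array of slide 1 was above 0 and every array of slide 2 below 0, so the mean over 12 arrays was -0.0021 ± 0.40 (adjusted p = 0.992). The PBS level of Gria2 was 10.10, 10.89 and 10.62 on slides 1, 2 and 3.

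Kainate receptor genes differed among themselves. Grik1, Grik2, Grik3 and Grik5 were above 0 on all arrays of slide 1, while Grik4, which encodes a high-affinity subunit, was below 0 there. Values of Grik4 on slides 1, 2 and 3 were -0.010, 0.075 and -0.17 with gold 20 nm, -0.84, 0.060 and -0.33 with gold 100 nm, -0.15, -0.13 and 0.41 with silicate 20 nm, and -0.32, 0.098 and 0.17 with silicate 100 nm. Its lowest value was that of gold 100 nm on slide 1 and its highest that of silicate 20 nm on slide 3. Its PBS level was 8.91, 8.72 and 8.80 on the 3 slides, so that slide 1 was highest for this gene. The mean was -0.096 ± 0.31 (SD, n = 12, adjusted p = 0.491).

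Delta receptors are synaptic organizer proteins. The delta receptor gene Grid1 read 0.27, -0.18 and 0.22 with gold 20 nm, 0.17, 0.011 and 0.019 with gold 100 nm, 0.17, -0.030 and -0.31 with silicate 20 nm, and 0.30, -0.015 and -0.26 with silicate 100 nm on slides 1, 2 and 3. It was above 0 on all slide 1 arrays and lower on the silicate arrays of slide 3, at a mean over 12 arrays of 0.031 ± 0.20 (adjusted p = 0.780). Its Cy3 signal was well above background on 9 arrays.

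Among NMDA receptor genes, Grin1, Grin2a, Grin2c, Grin2d and Grin3a were above 0 on all slide 1 arrays. Grin2c, which encodes a regulatory NMDA subunit, read 0.54, 0.13 and -0.15 with gold 20 nm, 0.27, 0.21 and -0.18 with gold 100 nm, 0.37, -0.012 and -0.21 with silicate 20 nm, and 0.65, 0.27 and 0.0070 with silicate 100 nm on slides 1, 2 and 3. Slide 1 was highest in all 4 groups, and the mean was the highest of the class, 0.16 ± 0.28 (SD, n = 12, adjusted p = 0.229 without a slide term). Grin2c passed with the replicate block (adjusted p = 0.00418) but not with the random block. Grin2d, another regulatory subunit gene, had 0.19, -0.36 and 0.13 with gold 20 nm, 0.48, -0.26 and 0.20 with gold 100 nm, 0.28, 0.17 and -0.54 with silicate 20 nm, and 0.20, -0.031 and -0.36 with silicate 100 nm. On slide 3 its gold arrays were above 0 and its silicate arrays below, the widest gap of the NMDA genes on that slide, 0.62 between the means. Its mean over 12 arrays was 0.0085 ± 0.31 (adjusted p = 0.964). Grin2a was below 0 on both silicate arrays and on the gold 100 nm array of slide 3, and above 0 on all other arrays. Grin1, the obligatory subunit, was well above background in Cy3 on 9 arrays and in Cy5 on 6, and Grin3b stayed near 0 with an SD of 0.092 over the 12 arrays.

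Of the 7 metabotropic receptor genes measured here, Grm3, Grm4, Grm5, Grm7 and Grm8 were above 0 on all arrays of slide 1. Grm7, which encodes a receptor of presynaptic terminals, read 0.59, 0.14 and 0.068 with gold 20 nm, 0.39, 0.094 and 0.12 with gold 100 nm, 0.58, 0.099 and -0.24 with silicate 20 nm, and 0.65, 0.20 and 0.036 with silicate 100 nm on slides 1, 2 and 3. It was above 0 on 11 of the 12 arrays, silicate 20 nm on slide 3 being the exception. Its mean of 0.23 ± 0.27 (SD, n = 12) did not pass (adjusted p = 0.0969, 0.389 with the random block and 0.00199 with the replicate block), and without both silicate arrays of slide 3 its adjusted p was 0.0374. Grm8, another presynaptic receptor, showed the widest spread of all 46 genes, an SD of 0.50. Its values on slides 1, 2 and 3 were 0.42, -0.13 and 0.11 with gold 20 nm, 0.60, -0.28 and -0.088 with gold 100 nm, 0.28, -0.35 and -0.98 with silicate 20 nm, and 0.57, -0.087 and -0.78 with silicate 100 nm. Slide 1 was above 0 throughout, slide 2 below 0 throughout, and on slide 3 the silicate arrays were far below the gold arrays, with means of -0.88 and 0.0095. Its mean over 12 arrays was -0.060 (adjusted p = 0.816). Grm5, which acts through phospholipase C, had slide 1 values of 0.55 to 0.75 by its brightest probe, and its 2 further probes had means over 12 arrays of 0.025 and -0.11 where the brightest had 0.20.

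GABA-A alpha subunits set the ligand and drug response of the receptor, and all 5 kept genes were above 0 on every slide 1 array. Gabra2 read 0.78, -0.20 and 0.55 with gold 20 nm, 0.95, 0.50 and -0.29 with gold 100 nm, 0.70, 0.25 and -0.31 with silicate 20 nm, and 0.83, 0.023 and 0.14 with silicate 100 nm on slides 1, 2 and 3. Its slide 1 mean of 0.82 was the highest of the receptor genes, while slides 2 and 3 held values on both sides of 0 and the groups overlapped. The mean over 12 arrays was 0.33 ± 0.45 (SD, adjusted p = 0.147 without a slide term). Gabra2 passed with the replicate block (adjusted p = 0.0229) but not with the random block.

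GABA-A beta subunits contribute to the GABA binding site, and all 3 beta genes were above 0 on every slide 1 array. Gabrb2 read 0.49, -0.068 and 0.037 with gold 20 nm, 0.55, -0.059 and 0.19 with gold 100 nm, 0.68, -0.031 and -0.48 with silicate 20 nm, and 0.61, -0.049 and -0.20 with silicate 100 nm on slides 1, 2 and 3. Gabrb1 read 0.51, -0.025 and 0.087 with gold 20 nm, 0.45, -0.11 and 0.077 with gold 100 nm, 0.53, -0.11 and -0.34 with silicate 20 nm, and 0.41, -0.099 and -0.20 with silicate 100 nm. In both genes slide 1 was above 0, slide 2 was below 0, and slide 3 split by material, with gold above 0 and silicate below. Over 12 arrays the mean of Gabrb2, the highest of the class, was 0.14 ± 0.36 (SD, adjusted p = 0.447), and that of Gabrb1 was 0.099 ± 0.30 (adjusted p = 0.515).

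Of the remaining GABA-A genes, Gabrd encodes the delta subunit of receptors outside the synapse. Gabrd read 0.59, -0.14 and -0.20 with gold 20 nm, 0.33, 0.12 and -0.32 with gold 100 nm, 0.36, -0.33 and -0.67 with silicate 20 nm, and 0.48, -0.11 and -0.47 with silicate 100 nm on slides 1, 2 and 3. On slide 3 all 4 arrays were below 0, the silicate arrays more so, and the mean over 12 arrays was -0.031 ± 0.40 (adjusted p = 0.889).

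The 3 rho genes, Gabrr1, Gabrr2 and Gabrr3, encode receptors of slow and lasting GABA currents, and all were above 0 on all slide 1 arrays. Gabrr3 read 0.32, 0.13 and 0.19 with gold 20 nm, 0.41, -0.019 and 0.25 with gold 100 nm, 0.80, -0.037 and -0.27 with silicate 20 nm, and 0.45, -0.079 and 0.0080 with silicate 100 nm on slides 1, 2 and 3. Slide 1 was highest in each group, and the mean was the highest of the rho genes, 0.18 ± 0.29 (SD, n = 12, adjusted p = 0.215 without a slide term). Gabrr3 passed with the replicate block (adjusted p = 0.0448) but not with the random block. Its further probe had a mean of -0.0037. Gabrr2 read 0.35, -0.041 and 0.00056 with gold 20 nm, 0.40, -0.15 and 0.15 with gold 100 nm, 0.36, -0.13 and -0.32 with silicate 20 nm, and 0.15, -0.15 and -0.35 with silicate 100 nm. It was at most 0.15 on slides 2 and 3, and its silicate arrays of slide 3 were lowest, at a mean over 12 arrays of 0.021 ± 0.26 (adjusted p = 0.881). The PBS level of Gabrr1 was 12.45, 13.13 and 13.04 on slides 1, 2 and 3.

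Glycine receptors consist of alpha subunits with the anchoring beta subunit of Glrb. Glra2 read 0.29, -0.0057 and 0.066 with gold 20 nm, 0.50, 0.048 and 0.23 with gold 100 nm, 0.72, -0.083 and -0.43 with silicate 20 nm, and 0.73, 0.10 and 0.093 with silicate 100 nm on slides 1, 2 and 3. The silicate arrays were highest on slide 1 and silicate 20 nm was lowest on slide 3. The mean was the highest of the class, 0.19 ± 0.33 (SD, n = 12, adjusted p = 0.239 without a slide term). Glra2 passed with the replicate block (adjusted p = 0.0338) but not with the random block. Glra3 had 0.15, 0.063 and -0.022 with gold 20 nm, 0.36, 0.15 and 0.16 with gold 100 nm, 0.27, -0.12 and -0.46 with silicate 20 nm, and 0.26, 0.15 and -0.25 with silicate 100 nm. Silicate on slide 3 was below 0 and gold was near 0 or above, and the mean over 12 arrays was 0.059 ± 0.24 (adjusted p = 0.598). Glra1 was the only glycine receptor gene not above 0 on all slide 1 arrays, with -0.21 for gold 100 nm and 0.77 for silicate 20 nm. Glrb had slide 1 values of 0.27 to 0.45 and a mean over 12 arrays of 0.10 ± 0.23 (adjusted p = 0.362).

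Gold was next compared with silicate. No receptor gene passed by limma without a slide term, with the slide as a random block or with the replicate block, and the share of all genes that passed was 0%, 0.0646% and 0%. At an unadjusted p under 0.05 there were 0, 1 and 4 receptor genes, against 5.18%, 13.9% and 16.3% of all genes. The difference of gold minus silicate ran from -0.21 for Grik4 to 0.33 for Grm8, with a median of 0.065 against -0.019 over all genes, and the smallest adjusted p was 0.881 without a slide term, 0.351 with the random block and 0.296 with the replicate block. For Grm8 the means were 0.11 over the 6 gold arrays and -0.22 over the 6 silicate arrays. Without the silicate arrays of slide 3 the median was -0.084. That fit had no slide term and kept the gold arrays of slide 3. It thus compared gold on all slides with silicate on slides 1 and 2, and mixes slide with material. In no receptor gene did all 6 gold arrays lie above all 6 silicate arrays, against 0.302% of all genes.

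Within slides the direction of this difference turned. On slide 3 both gold arrays were above both silicate arrays in 25 of the 46 genes, against 29.6% of all genes, and below both in 3, against 33.6%. On slide 1 both gold arrays were above in 1 gene, against 14.3%, and below in 13, against 20.3%. Slide 2 held 4 genes above, against 17%, and 6 below, against 19.5%.

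Particle size was compared in the same fit. No receptor gene differed between 100 nm and 20 nm, and none had an unadjusted p under 0.05, where 0% of all genes passed and 0.994% had such a p. Differences ran from -0.22 to 0.19 with a median of 0.014. The largest in size were those of the NMDA receptor gene Grin2b, with a difference of -0.22 and an SE of 0.12, and of Grik3, with -0.22 and an SE of 0.15. The size effect of gold minus that of silicate gave no call either, with 0% of all genes past the threshold, no receptor gene at an unadjusted p under 0.05, and values from -0.35 for Grik3 (SE 0.30) to 0.19. The SEs are those of the fit without a slide term. That fit keeps the spread between slides in its error, though each slide holds every group, so its SEs can be too wide here. With a fit that holds the slide as a random block, 2 and 0 receptor genes had an unadjusted p under 0.05 in these comparisons, against 3.12% and 2.32% of all genes, and with the replicate block 1 and 1, against 2.93% and 2.17%. A p that misses the threshold does not show that the sizes act alike.

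Other genes of transmitter handling were read from lists of transporters, enzymes, auxiliary subunits, scaffold proteins, GABA-B receptors and chloride carriers, 65 genes of which 62 were kept. Over the 4 groups together 9 were higher and none was lower by limma without a slide term, where 8.44% of all genes were higher and 6.34% lower, and none passed with the random block. Abat, the enzyme gene that breaks down GABA, had a mean of 0.38 ± 0.14 (SD, n = 12), above 0 on all 12 arrays (adjusted p = 0.000593 without a slide term, 0.0522 with the slide as a random block). Slc6a13, which encodes a GABA transporter of the blood-retina barrier and meninges, had 1.19 ± 0.70, above 0 on all 12 arrays (adjusted p = 0.000884 without a slide term, 0.0938 with the slide as a random block). Slc17a6, the vesicular glutamate transporter gene of ganglion cells, which is also on the ganglion cell marker list, had 0.49 ± 0.32 (adjusted p = 0.00952). The glutamate transporter gene Slc1a1 (0.19), the AMPA receptor auxiliary gene Shisa6 (0.24), the scaffold genes Dlg3 (0.25), Dlgap1 (0.29) and Dlgap2 (0.23) and the chloride importer gene Slc12a2 (0.24) were the others. Their adjusted p was 0.0032 to 0.0478, and that of Dlgap1 was above 0.05 in 9 of its alternatives.

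In single groups, Slc6a13 was higher with gold 100 nm, at 1.82 (adjusted p = 0.0237), and with silicate 20 nm, at 1.51 (adjusted p = 0.0385). Abat (0.46, adjusted p = 0.0351) and Slc1a1 (0.32, adjusted p = 0.0473) were higher with silicate 20 nm. None of these passed with the random block, where the adjusted p was 0.0709 to 0.140. Over the 62 genes the median for the 4 groups together was 0.10, with 48 above 0, beside 0.10 for the receptor genes and -0.0074 for all genes.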

How the data were processed

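The deposited scanner files of 12 two-colour Agilent arrays give, per the file headers, the median intensity and local background of each spot in both channels, from Feature Extraction 11.0.1.1, while the submitters' processing notes name 9.3.2.1. The scanner files also hold a log10 ratio of Cy5 over Cy3 made by the scanner software, per the file headers. The authors' deposited value table states no scale: its slope against that log10 ratio was 3.30 to 3.32 (r of 0.942 to 0.995), so its values were read as log2 of Cy5 over Cy3. Its column medians were 0.016 to 0.11, and its centring is unknown.

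Control spots (1377 of 44397) and outlier spots (149 to 257 per array) were left out, and none was saturated. Intensities were background-corrected with limma 3.58.1 (R 4.3.3) by normexp with an offset of 50, and ratios were normalized by loess within each array. The brightest kept probe stood for a gene. Of 39429 probes, 28460 were kept for 23237 genes, and 15592 of these genes had a symbol. Levels came from Aquantile normalization. Contrasts of the 4 group means were tested with lmFit and eBayes, two-sided, and p-values were adjusted by Benjamini-Hochberg across every gene tested (threshold 0.05). The slide was added as a random block (duplicateCorrelation, 0.494) and as a replicate block. The replicate number is the slide, per the file headers, so it pairs arrays. Deviations from the group means correlated at 0.889 to 0.934 on slide 1, 0.0811 to 0.831 on slide 2 and 0.554 to 0.919 on slide 3. Array position and group cannot be told apart. The units behind the p-values are pooled tubes, not single mice. Against PBS, the fit without a slide term treats ratios taken to share a PBS tube as independent, so its p-values understate the spread between PBS tubes. The replicate block leaves that spread out. Of these fits, only the random block takes the ratios of a slide as correlated. Between particle groups, the fit without a slide term keeps the spread between slides in its error, though each slide holds every group. Its errors can be too wide there.

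The members, marker lists and pathway lists were chosen with earlier results of these data known. Values on every array are given for genes past the threshold and, in each class, for those with the mean and the gold-silicate difference of largest size, where reported. Alternatives were other background corrections, normalizations, filters and probe rules, the value table, and leaving out a slide or the silicate arrays of slide 3. The fit without a slide term was tested on simulated data with independent noise on every array. The simulation held no shared PBS tube and no slide effect, so it cannot show how the fits behave with these. Some receptor genes are not reported here by name, though they enter the counts and medians where kept.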

Additional observations from a re-analysis of the deposited data

How the results depend on the processing

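For the 4 groups together against PBS, the number of receptor genes past the threshold was 4, where 14.8% of all genes passed. It was 15 with the slide as a replicate block, where 34.8% of all genes passed, and 0 with it as a random block, where 1.69% passed. It was 1 with only probes well above background everywhere (38 tested), 7 without both silicate arrays of slide 3, and 0 to 5 when a slide was left out. The share of all genes moved with the fit too, so these counts are not read as a result about the receptor genes. The replicate block gave 1 call in each single group against PBS. The stricter filter gave no value for Gabra5, Gabrp, Grm3, Glra3, Grid1 and Grin2d. The other 198 values of counts and medians lay within 1.5 times the count or within 1 SD of the median between replicates, a wide margin: the median over the receptor genes for the 4 groups together still went from 0.10 to -0.054 without slide 1, and that of gold minus silicate from 0.065 to -0.084 without both silicate arrays of slide 3. Among values of single genes 428 kept direction and side of the threshold, 73 fell short of it, 8 newly passed and 28 changed sign. Sign changes in the mean of the 4 groups were those of Gria2 with processed signals (0.014), median centring (0.015), the mean of all kept probes (0.012), the value table (0.0075) and without both silicate arrays of slide 3 (0.086), of Grin2d without background subtraction (-0.0013) and with median centring (-0.0042), and of Gabrd (0.081) and Grm8 (0.10) without both silicate arrays. With a slide left out in turn, the mean ranged from -0.083 to 0.27 for Gabrb2, -0.089 to 0.20 for Gabrb1, -0.27 to 0.16 for Gabrd, -0.12 to 0.098 for Gabrr2, -0.042 to 0.16 for Glra3, -0.24 to 0.12 for Gria2, -0.067 to 0.087 for Grid1, -0.16 to 0.021 for Grik4, -0.13 to 0.084 for Grin2d and -0.32 to 0.13 for Grm8. For gold minus silicate the range was -0.036 to 0.19 for Grid1 and -0.14 to 0.36 for Grin2d. The fit that dropped the slide 3 silicate arrays gave the other sign for Gabrb1 (-0.015), Gabrd (-0.038), Grid1 (-0.020) and Grin2d (-0.092). As for the median of -0.084 above, gold on all slides was there set against silicate on slides 1 and 2, with no slide term. That fit mixes slide with material, so these 4 signs cannot show a turn between the materials. The cause of the sign changes was not tested. Depth does not apply to arrays, but Gabra5, Gabrp and Grm3 lie near background, where the ratio depends on the offset.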

Other observations

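Several receptor genes are neighbours in the RefSeq order of protein-coding genes, and some of them showed like slide 1 means. Gabra4 and Gabrb1 had 0.48 to 0.50, and Gria2 and Glrb had 0.38 to 0.47. In Gabrg1 and Gabra2 the means were wider apart, from 0.46 to 0.82. No test was made of these values.

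Among the receptor genes, 14 had several kept probes, with 15 further probes. Of these, 10 had the same sign over the 12 arrays as the probe used, and 13 had a slide 1 mean above 0. The 5 with the other sign belong to Gabrr3, Glra1, Gria2, Grm4 and Grm5. For Glra1 the further probe read 0.072 where the probe used read -0.037.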
